A study of Arabidopsis thaliana with 8 samples.

Results

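The phosphate sensing and transport set holds 9 of the 27655 loci measured in Arabidopsis shoot apices, chosen by locus for their known roles in phosphate signalling: the transcription factor PHR1, the SPX-domain proteins SPX1, SPX2, SPX3 and SPX4, the ubiquitin conjugase PHO2, the exporter PHO1, and the importers PHT1;1 and PHT1;4. RNA was sequenced from shoot apices of 4 groups with 2 libraries each: the line pFD::amiR-PECT1 at 16 days, wild type at 16 days, the same line at 10 days and wild type at 10 days. All plants grew in short days at 23 °C on plates of half-strength MS medium and were taken at ZT 8, a zeitgeber time of 8 hours. The transgenic line, called the knockdown line here, carries an artificial microRNA against PECT1 under the FD promoter, which is active in part of the apex only, so the bulk libraries mix cells with and without it, and fewer cells of a type cannot be told apart from less RNA per cell. No further allele is given for either genotype, and the labels say neither how many transgenic lines were used nor whether libraries of 1 group came from separate cultures, so p-values measure the spread between these libraries, part of which may be technical.

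PHR1 binds a promoter motif called P1BS and switches on genes of the phosphate starvation response. When phosphate is plentiful, inositol pyrophosphates bind the SPX domains and the SPX proteins hold PHR1 off its targets, while PHO2 marks PHO1 and PHT1 transporters for degradation. When phosphate is scarce, PHR1 induces the microRNA miR399, which binds the 5′ untranslated region of the PHO2 transcript and lowers PHO2, and PHO1 loads phosphate into the xylem for transport to the shoot.

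The sequences that join these genes are shown first. The mature miR399 sequences are the regulators of PHO2 and are given 5′ to 3′ from RefSeq's TAIR10.1 assembly, with the seed (bases 2 to 8) in capitals. With any 5p product left out, RefSeq places 6 mature miR399 on chromosomes 1, 2 and 5. All 6 have the same seed, and miR399b and miR399c-3p are identical.
miR399a: uGCCAAAGgagauuugcccug
miR399b: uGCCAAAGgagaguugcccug
miR399d: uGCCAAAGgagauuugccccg
miR399e: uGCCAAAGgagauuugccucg
miR399f: uGCCAAAGgagauuugcccgg

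The PHO2 transcript (AT2G33770, chromosome 2, minus strand) held 5 ungapped windows of 21 bases with at most 4 mismatches to a miR399, and all lay in its 5′ untranslated region. Each had 2 mismatches to its best miR399. They are given 5′ to 3′ on the transcript, TAIR10.1, with bases complementary to that miR399 in capitals and all others in lower case. A G:U pair was scored as a mismatch, so some bases in lower case may still pair. Site 3 has its fewest mismatches with miR399a, miR399d and miR399f alike, site 4 with miR399f, and the others with miR399a.
chr2:14282106-14282126, site 1: tAGGGCAAATCTtCTTTGGCA
chr2:14281973-14281993, site 2: tAGGGCAtATCTCCTTTGGCA
chr2:14281884-14281904, site 3: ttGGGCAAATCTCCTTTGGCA
chr2:14281827-14281847, site 4: tCGaGCAAATCTCCTTTGGCA
chr2:14281770-14281790, site 5: tAGaGCAAATCTCCTTTGGCA

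None of the other 8 members, and neither IPS1 nor AT4 (non-coding transcripts that bind miR399 as target mimics), held an ungapped window with at most 4 mismatches. A mimic pairs with a bulge, which an ungapped search does not score. The miR399 precursors were not analysed here.

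P1BS was searched as GNATATNC, which reads the same on both strands. In the 300 bases upstream of the gene start, 1 of the 9 members held it, SPX3, against 6.50% of the 27443 upstream regions of that length. In 1000 bases, 5 of the 9 held it (SPX1, SPX3, SPX4, PHO2 and PHT1;1), against 20.25% of all regions. The upstream window of SPX3 (chr2:18606110-18606409, plus strand, TAIR10.1) is shown because it holds 2 matches, in capitals. A match is a description of the letters and not a bound site.
SPX3: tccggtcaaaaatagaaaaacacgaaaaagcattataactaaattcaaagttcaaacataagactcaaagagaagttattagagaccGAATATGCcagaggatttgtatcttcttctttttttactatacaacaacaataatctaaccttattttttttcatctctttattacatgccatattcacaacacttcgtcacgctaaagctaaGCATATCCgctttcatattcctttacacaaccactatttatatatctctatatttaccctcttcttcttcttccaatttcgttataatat

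Root hair, endodermis and root tip markers (7 genes) summed to 0.06 to 0.47 RPKM per library, and 2 of them, RHD6 and PLT1, were at 0 in all 8 libraries. The meristem genes STM and KNAT1 were at 6.31 to 17.46 and at 6.20 to 10.60 RPKM, while the stem cell genes CLV3 and WUS were below 1 RPKM everywhere. Leaf mesophyll markers were the strongest, with sums of 21952 to 29376 RPKM over 6 genes. PECT1 had 34.43 and 37.03 RPKM in knockdown and 40.41 and 41.32 RPKM in wild-type apices of day 16, and 35.33 and 37.11 RPKM in knockdown and 40.73 and 39.24 RPKM in wild-type apices of day 10. All 4 knockdown libraries lay below all 4 wild-type libraries, an order that 6.67% of tested genes showed in either direction, and the log2 fold change over both ages was -0.16 (SE 0.10, limma adjusted p = 0.540). FD itself, the gene whose promoter drives the artificial microRNA, had 2.49 and 2.57 RPKM in knockdown and 2.38 and 1.74 RPKM in wild-type apices of day 16, and 1.23 and 1.05 RPKM in knockdown and 1.73 and 2.23 RPKM in wild-type apices of day 10. The steps between low values put the depth at 15.46 to 18.16 M reads for each library. Replicate 1 of the knockdown line at day 16 stood apart by the lowest depth and the largest share of organelle transcripts. That share was 0.342% of its RPKM sum against 0.188% to 0.260% in the other libraries. The 2 libraries of its group correlated at 0.968, against 0.975 to 0.978 in the other groups. This correlation does not say which of the 2 differed.

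The members spanned a wide range of levels, and RPKM is scaled by transcript length, so they can be set side by side. PHR1 was highest on average, at 18.3 ± 2.78 RPKM (SD, n = 8 libraries), followed by PHO2 at 15.9 ± 6.14 RPKM. SPX2 averaged 8.66 ± 1.48 RPKM, SPX1 averaged 7.45 ± 2.83 RPKM and SPX4 averaged 6.60 ± 1.29 RPKM. PHO1 averaged 4.75 ± 2.62 RPKM and PHT1;4 averaged 2.39 ± 0.507 RPKM. PHT1;1 and SPX3 were lowest, at 0.611 ± 0.593 and 0.198 ± 0.181 RPKM. The ranges over the 8 libraries overlapped for every pair of neighbours in that order.

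**Figure D1:**
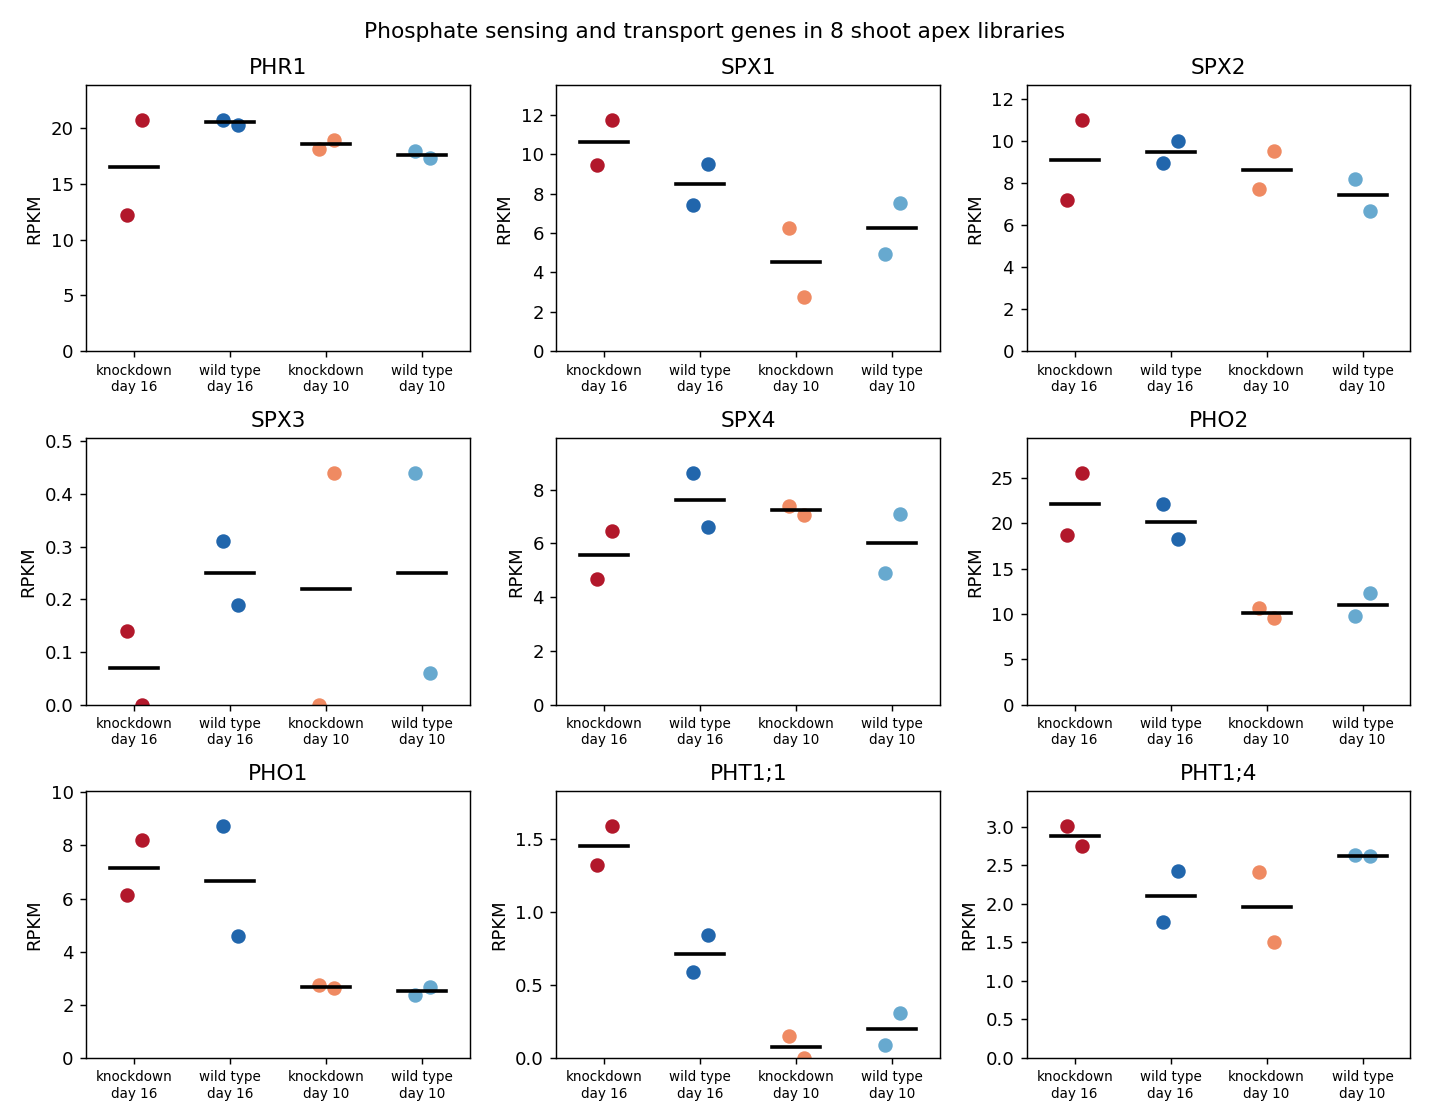
RPKM (vertical axis, from 0, a scale of its own in each panel) of each of the 9 genes in the 8 libraries; points are libraries and lines are means of 2. PHO2, PHO1 and PHT1;1 have all 4 libraries of day 16 above all 4 of day 10, while no gene has all 4 knockdown libraries beyond all 4 wild-type libraries.

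Of the 9 members, 8 could be tested with limma on log2(RPKM + 1), in a model fitted to all 17467 genes that reached 1 RPKM in at least 2 libraries. SPX3 stayed below that level. No member passed an adjusted p of 0.05 between the knockdown line and wild type at day 16 (adjusted p of 0.811 to 0.961), at day 10 (0.792 to 0.974) or over both ages (0.726 to 0.998), and 0 had an unadjusted p under 0.05 in any of the 3, where 6.37%, 6.66% and 12% of all tested genes had one at day 16, at day 10 and over both ages. Few genes passed at all: 0.115% of the 17467 at day 16, 0.0744% at day 10 and 0.246% over both ages. PHT1;1 reached 1 RPKM only in the knockdown line at day 16, and without it the median log2 fold change of the 7 other members was 0.11 at day 16, 0.07 at day 10 and 0.00 over both ages, beside -0.11, -0.02 and -0.06 over all tested genes. The shift of the whole day 16 comparison, -0.11, became -0.0025 with median-of-ratios scaling.

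PHR1, the MYB-type activator at the head of the pathway (AT4G28610), had 12.20 and 20.71 RPKM in knockdown and 20.67 and 20.27 RPKM in wild-type apices of day 16. The day 10 values were 18.13 and 18.92 RPKM in knockdown apices and 17.87 and 17.27 RPKM in wild-type apices. Apart from the library that stood apart, PHR1 kept between 17.27 and 20.71 RPKM. Its log2 fold change was -0.34 (SE 0.23, 95% interval -0.85 to 0.17) at day 16 and 0.07 (SE 0.23, -0.44 to 0.58) at day 10, and without that library the day 16 value was 0.02. PHR1 overlaps the neighbouring gene NPGR2 in the annotation, and the sources do not say how reads shared by the 2 were counted.

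SPX1 (AT5G20150), a nuclear inhibitor of PHR1 that PHR1 itself induces, had 9.44 and 11.74 RPKM in knockdown and 7.42 and 9.50 RPKM in wild-type apices of day 16. At the earlier age, knockdown apices had 6.24 and 2.78 RPKM and wild-type apices 4.94 and 7.52 RPKM. The genotypes overlapped at both ages. The log2 fold change of the knockdown line over wild type was 0.29 (SE 0.32, 95% interval -0.42 to 1.01) at day 16 and -0.44 (SE 0.32, -1.16 to 0.28) at day 10.

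SPX2 (AT2G26660), which acts like SPX1, had 7.21 and 11.01 RPKM in knockdown and 8.94 and 10.00 RPKM in wild-type apices of day 16. Apices of day 10 gave 7.74 and 9.53 RPKM for the knockdown line and 8.20 and 6.67 RPKM for wild type. It was the steadiest of the SPX genes that could be tested when set by the range of its 4 group means on the log2 scale, 0.32, beside 1.14 for SPX1 and 0.39 for SPX4. Its log2 fold change was -0.07 (SE 0.24, 95% interval -0.61 to 0.46) at day 16, a sign that turned to 0.04 with median-of-ratios scaling, and 0.19 (SE 0.24, -0.34 to 0.72) at day 10.

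SPX4 (AT5G15330), whose rice counterpart holds a PHR1-like factor outside the nucleus, had 4.69 and 6.45 RPKM in knockdown and 8.62 and 6.60 RPKM in wild-type apices of day 16. The day 10 values were 7.40 and 7.06 RPKM in knockdown apices and 4.91 and 7.09 RPKM in wild-type apices. Both knockdown libraries lay below both wild-type libraries at day 16, by a margin of 6.45 against 6.60 RPKM, and the groups overlapped at day 10. The log2 fold change was -0.39 (SE 0.25, 95% interval -0.94 to 0.16) at day 16 and 0.25 (SE 0.25, -0.30 to 0.80) at day 10.

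SPX3 (AT2G45130), a strongly starvation-induced SPX gene, had 0.14 and 0 RPKM in knockdown and 0.31 and 0.19 RPKM in wild-type apices of day 16. At the earlier age, knockdown apices had 0 and 0.44 RPKM and wild-type apices 0.44 and 0.06 RPKM. These values stand for an estimated 0 to 7 reads per library, so a difference was not detectable at this depth. SPX3 is the member with P1BS in its 300 upstream bases, and it was the lowest of the 9. The coding sequences of SPX1 and SPX2 are 64.0% identical, the highest among the 4 SPX genes, and those of SPX1 and SPX3 54.8%.

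PHO2 (AT2G33770), the target of miR399 shown above, had 18.66 and 25.57 RPKM in knockdown and 22.15 and 18.24 RPKM in wild-type apices of day 16. Apices of day 10 gave 10.69 and 9.52 RPKM for the knockdown line and 9.83 and 12.26 RPKM for wild type. The genotypes overlapped at each age, and the ages did not. The log2 fold change of the knockdown line over wild type was 0.11 (SE 0.21, 95% interval -0.36 to 0.59) at day 16 and -0.11 (SE 0.21, -0.59 to 0.37) at day 10.

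PHO1 (AT3G23430), the exporter that PHO2 marks for degradation, had 6.13 and 8.19 RPKM in knockdown and 8.73 and 4.57 RPKM in wild-type apices of day 16. The day 10 values were 2.75 and 2.62 RPKM in knockdown apices and 2.36 and 2.67 RPKM in wild-type apices. The day 10 libraries lay close together and the day 16 libraries were spread, widest in wild type. The log2 fold change was 0.14 (SE 0.29, 95% interval -0.50 to 0.78) at day 16 and 0.07 (SE 0.29, -0.57 to 0.71) at day 10.

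PHT1;1 (AT5G43350), a plasma membrane importer best known from the root, had 1.32 and 1.59 RPKM in knockdown and 0.59 and 0.84 RPKM in wild-type apices of day 16. At the earlier age, knockdown apices had 0.15 and 0 RPKM and wild-type apices 0.09 and 0.31 RPKM. Both knockdown libraries lay above both wild-type libraries at day 16. The log2 fold change was 0.52 (SE 0.27, 95% interval -0.09 to 1.13, unadjusted p = 0.0883, limma adjusted p = 0.811) at day 16 and -0.16 (SE 0.27, -0.77 to 0.46) at day 10. The reads behind these values were few, an estimated 41 and 58 in the knockdown line and 21 and 29 in wild type at day 16, and 0 to 11 at day 10. PHT1;1 entered the test only through the 2 knockdown libraries of day 16, the group where it was highest, and could not be tested without either, so no support is drawn from its being among the members tested. Its coding sequence is 97.7% identical to that of PHT1;2 and 89.5% to that of PHT1;3, which were listed at 0 to 0.07 RPKM and at 0, and reads that fit several of these genes may have been split or dropped.

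PHT1;4 (AT2G38940), the other high-affinity importer, had 3.01 and 2.75 RPKM in knockdown and 1.77 and 2.42 RPKM in wild-type apices of day 16. Apices of day 10 gave 2.41 and 1.50 RPKM for the knockdown line and 2.63 and 2.62 RPKM for wild type. The order of the genotypes thus differed between the ages, with the knockdown line above wild type at day 16 and below it at day 10. The log2 fold change was 0.33 (SE 0.25, 95% interval -0.24 to 0.90) at day 16 and -0.31 (SE 0.25, -0.88 to 0.26) at day 10. The difference between the ages was 0.65 (SE 0.36, -0.16 to 1.45, limma adjusted p = 1.00 for the interaction).

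**Figure D2:**
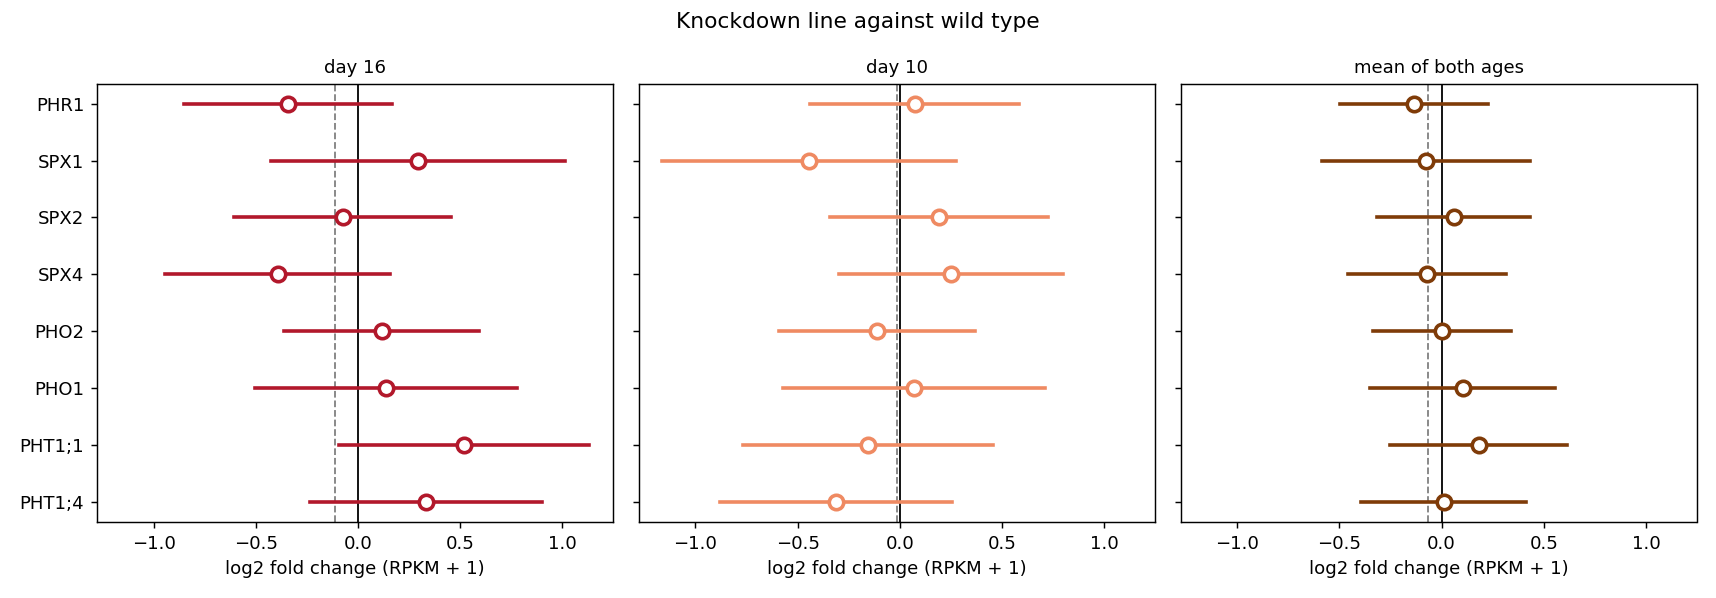
Log2 fold change of the knockdown line over wild type (horizontal axis, on log2(RPKM + 1)) with 95% intervals for the 8 tested genes, at day 16, at day 10 and over both ages; open circles did not pass an adjusted p of 0.05, and the dashed line is the median of all tested genes. Every interval includes 0.

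Counted over the 8 tested members, 3 had both knockdown libraries beyond both wild-type libraries at day 16 (PHT1;1 and PHT1;4 above, SPX4 below), where 34.1% of all tested genes did. At day 10 it was 2 (PHR1 above, PHT1;4 below), where 40.9% did. The day 16 count includes PHT1;1, which entered the test only through the knockdown libraries of that age, so no support is drawn from its place there. No member had all 4 knockdown libraries beyond all 4 wild-type libraries, where 6.67% did. Over both ages the log2 fold changes of the members lay between -0.14 for PHR1 and 0.18 for PHT1;1, with SPX1 at -0.07, SPX4 at -0.07, PHO2 at 0.00, PHT1;4 at 0.01, SPX2 at 0.06 and PHO1 at 0.10. The 95% intervals over both ages reached from -0.58 for SPX1 at the low end to 0.61 for PHT1;1 at the high end on the log2 scale, and that of PHO2 was the narrowest, from -0.34 to 0.34. No member passed the interaction of genotype and age by limma, and 0 had an unadjusted p under 0.05. None of the 17467 genes passed it either (0%), of which 288 (1.65%) had an unadjusted p under 0.05. In the authors' deposited tables of genes changed between the knockdown line and wild type, which hold 211 higher and 213 lower genes at day 16 and 321 higher and 331 lower genes at day 10, 0 of the 9 members are listed.

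Between the ages, PHO2 and PHO1 were higher at day 16. PHO2 averaged 21.2 ± 3.43 RPKM at day 16 and 10.6 ± 1.23 RPKM at day 10 (SD, n = 4 each, both genotypes), a ratio of 2.00. PHO1 averaged 6.91 ± 1.92 RPKM at day 16 and 2.60 ± 0.169 RPKM at day 10, a ratio of 2.66. Both were higher in all 4 libraries of day 16 than in all 4 of day 10, and both rose in the mean of the genotypes: PHO2 by a log2 fold change of 0.93 (SE 0.15, 95% interval 0.59 to 1.27, limma adjusted p = 0.0188) and PHO1 by 1.10 (SE 0.20, 0.65 to 1.56, limma adjusted p = 0.0311). This comparison over both genotypes was added after the data had been seen, and 2 of the 8 members passed it, both higher, where 1.39% of the tested genes passed in either direction, 192 higher and 50 lower.

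Within each genotype alone no member passed limma's adjusted threshold, while 4 in the knockdown line and 2 in wild type had an unadjusted p under 0.05, where 8.55% and 7.46% of all tested genes did in the knockdown line and in wild type. The 4 in the knockdown line include PHT1;1, which entered the test only through the day 16 libraries of that line, so no support is drawn from its place there. In the knockdown line PHO2 had a log2 fold change of 1.04 (SE 0.21, limma adjusted p = 0.106) and PHO1 of 1.14 (SE 0.29, adjusted p = 0.215), where 0.269% of genes passed. In wild type PHO2 had 0.82 (SE 0.21, limma adjusted p = 0.326) and PHO1 1.07 (SE 0.29, adjusted p = 0.341), where 0.223% passed. The 2 genotypes thus gave values on the same side, and the interaction was 0.23 (SE 0.30) for PHO2 and 0.07 (SE 0.41) for PHO1.

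PHT1;1 also had all 4 libraries of day 16 above all 4 of day 10, at 1.09 ± 0.453 RPKM at day 16 and 0.138 ± 0.130 RPKM at day 10 (SD, n = 4 each). Its log2 fold change over both genotypes was 0.86 (SE 0.19, limma adjusted p = 0.0704), which did not pass; without the filter on low values it did (0.0444). Because the gene is low, this value depends on the pseudocount: it was 1.78 with a pseudocount of 0.25 and 0.29 with one of 4. An order with all of day 16 above all of day 10 was found in 5.18% of the tested genes, and among the members in PHO2, PHO1 and PHT1;1. Because PHT1;1 entered the test only through libraries of day 16, no support is drawn from its order.

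SPX1 averaged 9.53 ± 1.76 RPKM at day 16 and 5.37 ± 2.02 RPKM at day 10 (SD, n = 4 each), and its lowest library of day 16, 7.42 RPKM, lay just under its highest of day 10, 7.52 RPKM. Its log2 fold change over both genotypes was 0.77 (SE 0.23, limma adjusted p = 0.162). PHR1, SPX2, SPX4 and PHT1;4 stood near their day 10 levels: PHR1 averaged 18.5 RPKM at day 16 and 18.0 RPKM at day 10, SPX2 averaged 9.29 RPKM at day 16 and 8.04 RPKM at day 10, SPX4 averaged 6.59 RPKM at day 16 and 6.62 RPKM at day 10, and PHT1;4 averaged 2.49 RPKM at day 16 and 2.29 RPKM at day 10. The 95% intervals of their age differences all included 0 and reached from -0.40 for SPX4 to 0.56 for SPX2.

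**Figure D3:**
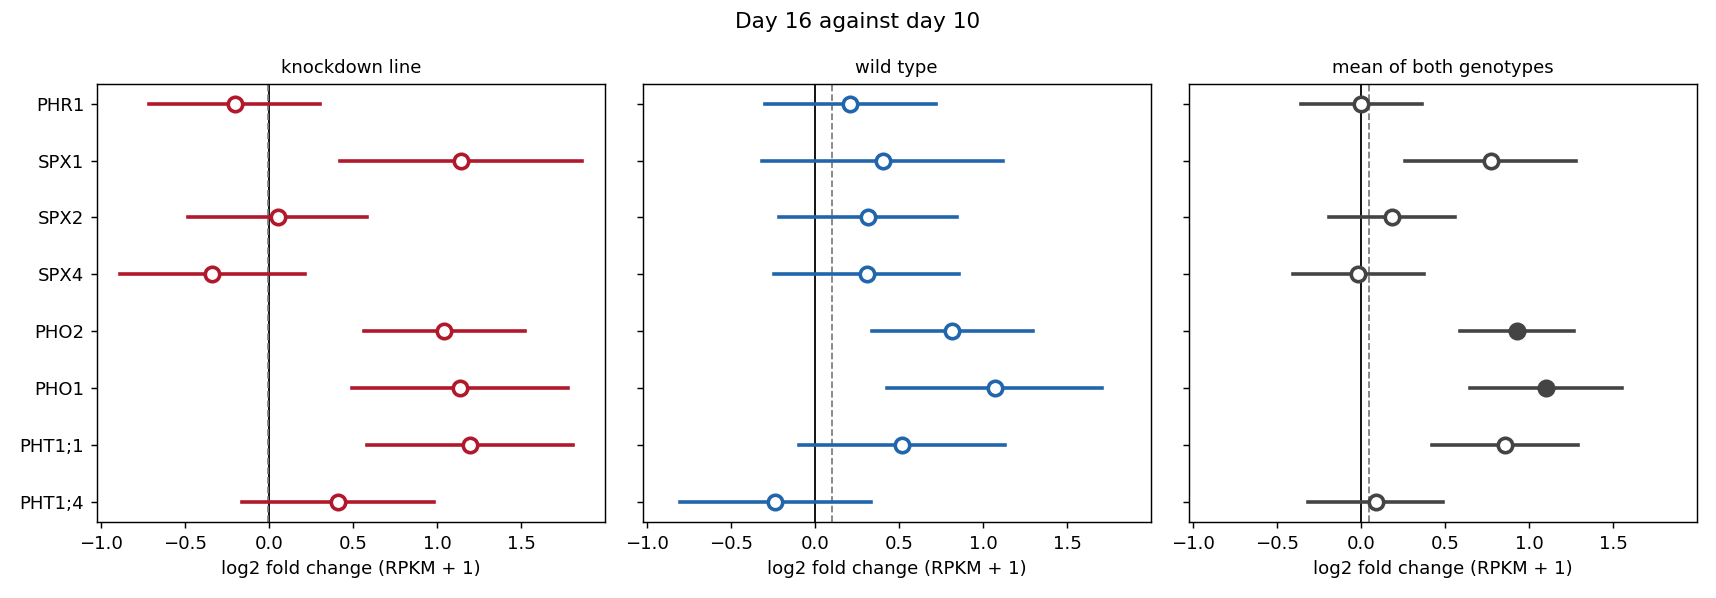
Log2 fold change of day 16 over day 10 (horizontal axis, on log2(RPKM + 1)) with 95% intervals for the 8 tested genes, in the knockdown line, in wild type and over both genotypes; filled circles passed an adjusted p of 0.05, and the dashed line is the median of all tested genes. PHO2 and PHO1 are filled over both genotypes, at 0.93 and 1.10.

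Leaving out 1 library ended the call of PHO2 except without replicate 1 of the knockdown line at day 16 (limma adjusted p = 0.0235) or replicate 2 of wild type at day 10 (0.0459), and its adjusted p reached 0.0801. It ended that of PHO1 except without replicate 1 of the knockdown line at day 16 (limma adjusted p = 0.0439) or replicate 2 of wild type at day 16 (0.0239), and reached 0.117. Without the filter on low values both calls were lost (limma adjusted p = 0.0527 for PHO2 and 0.0947 for PHO1), and with quantile normalization that of PHO1 was (0.0517). Tissue markers moved with age as well. The 5 apex markers summed to 20.8 to 30.1 RPKM at day 16 and 13.2 to 21.7 RPKM at day 10, ranges that overlap, and STM rose by a log2 fold change of 0.98 (SE 0.15, limma adjusted p = 0.0121). The ratio of mean RPKM at day 16 over day 10 was 2.12 for STM, 1.92 for KNAT2 and 1.06 for KNAT1. CLV3 and WUS stayed below 1 RPKM. The 6 mesophyll markers summed to 21952 to 25705 RPKM at day 16 and 24658 to 29376 RPKM at day 10, ranges that overlap. The ratio of mean RPKM at day 16 over day 10 was 0.70 for RCA, 0.73 for RBCS1A and 0.83 for SBPASE. It was 0.85 for LHCB2.1, 0.94 for GAPA and 0.98 for CAB1. Of the 8 vascular markers, the 3 of the xylem, near whose vessels PHO1 acts, summed to 48.8 to 59.3 RPKM at day 16 and 59.0 to 79.2 RPKM at day 10, and the 5 of the phloem to 52.8 to 92.8 RPKM at day 16 and 48.6 to 69.5 RPKM at day 10. None of XCP1, XCP2, IRX3 and SUC2 passed (limma adjusted p of 0.170 to 0.421), with log2 fold changes of -0.46 for XCP1, -0.40 for XCP2, -0.37 for IRX3 and 0.40 for SUC2. The other phloem markers did not rise like SUC2. Their ratios of mean RPKM at day 16 over day 10 were 1.01 for SWEET12, 0.93 for APL, 0.88 for SEOR1 and 0.80 for SWEET11, beside 1.36 for SUC2. The part of these tissue differences in the age results was not tested.

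By Pearson correlation of log2(RPKM + 1) over the 8 libraries, among 17401 tested genes outside the lists, the patterns most like that of PHO1, the member with the widest range of group means, were those of the chitinase gene HCHIB (r = 0.993), AT1G72800 (0.983) and LBD25 (0.971), a gene of the LOB-domain family. These are the highest of many correlations and are given as a description. All 3 were low, between 0.06 and 2.37 RPKM.

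The wider pathway was read from 3 lists of genes named by RefSeq: 14 other genes of phosphate signalling, 20 other transport genes and 19 genes of the starvation response. Of these, 10, 11 and 11 reached the level needed for the test, and the others stayed below it. None of the 3 lists had a gene that passed between the knockdown line and wild type, at either age or over both by limma; at an unadjusted p under 0.05 there was 1 starvation response gene at day 16, 1 transport gene at day 10, and 1 gene of each list over both ages, beside the 6.37%, 6.66% and 12% of all tested genes given above. Median log2 fold changes over both ages were 0.02 for signalling, -0.14 for transport and 0.04 for the starvation response, beside 0.00 for the 7 members other than PHT1;1 and -0.06 over all tested genes.

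Among the signalling genes with the smallest p-values was PHL1, a close relative of PHR1 that shares its targets. PHL1 had 2.98 and 4.39 RPKM in knockdown and 2.62 and 2.91 RPKM in wild-type apices of day 16, and 2.44 and 3.07 RPKM in knockdown and 1.60 and 1.74 RPKM in wild-type apices of day 10. Both knockdown libraries lay above both wild-type libraries at each age. Of all tested genes, 34.1% at day 16 and 40.9% at day 10 showed such an order in either direction. Across both ages the genotypes overlapped, with a lowest knockdown value of 2.44 RPKM and a highest wild-type value of 2.91 RPKM. The log2 fold change of PHL1 over both ages was 0.39 (SE 0.18, limma unadjusted p = 0.0493, adjusted p = 0.417). NLA, an SPX-domain ubiquitin ligase of PHT1 importers, had 9.45 and 6.62 RPKM in knockdown and 7.83 and 5.26 RPKM in wild-type apices of day 16. Apices of day 10 gave 12.24 and 6.72 RPKM for the knockdown line and 7.40 and 3.09 RPKM for wild type. Replicate 1 lay above replicate 2 in all 4 groups. Over both ages the log2 fold change of NLA was 0.52 (SE 0.27, limma unadjusted p = 0.0800, adjusted p = 0.464). PDR2, an ATPase of root phosphate sensing, had 7.25 and 10.99 RPKM in knockdown and 11.14 and 10.57 RPKM in wild-type apices of day 16.

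Among the transport genes, the 7 other importers of the PHT1 family were at most at 0.59 RPKM, and 3 of them (PHT1;3, PHT1;8 and PHT1;9) were at 0 in all 8 libraries. Some organelle carriers stood far above them: PHT3;1 of the mitochondrion was at 168.08 to 204.65 RPKM and PHT2;1 of the chloroplast at 20.47 to 56.77 RPKM. Others did not: PHT3;2 was at 0 in all 8 libraries and PHT4;2 at 0 to 0.42 RPKM. The plastid transporter PHT4;1 had 6.98 and 6.54 RPKM in knockdown and 12.86 and 7.46 RPKM in wild-type apices of day 16, and 4.99 and 5.98 RPKM in knockdown and 7.17 and 15.42 RPKM in wild-type apices of day 10. Its log2 fold change over both ages was -0.66 (SE 0.24, limma unadjusted p = 0.0203, adjusted p = 0.337). All 4 knockdown libraries lay below all 4 wild-type libraries, an order that 6.67% of tested genes showed in either direction. Leaving out replicate 2 of the day-10 wild type gave a log2 fold change of -0.41, against -0.91 without replicate 1 of that group. PHF1, which lets PHT1 importers leave the endoplasmic reticulum, had 4.93 and 6.71 RPKM in knockdown and 8.39 and 6.67 RPKM in wild-type apices of day 16.

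**Figure D4:**
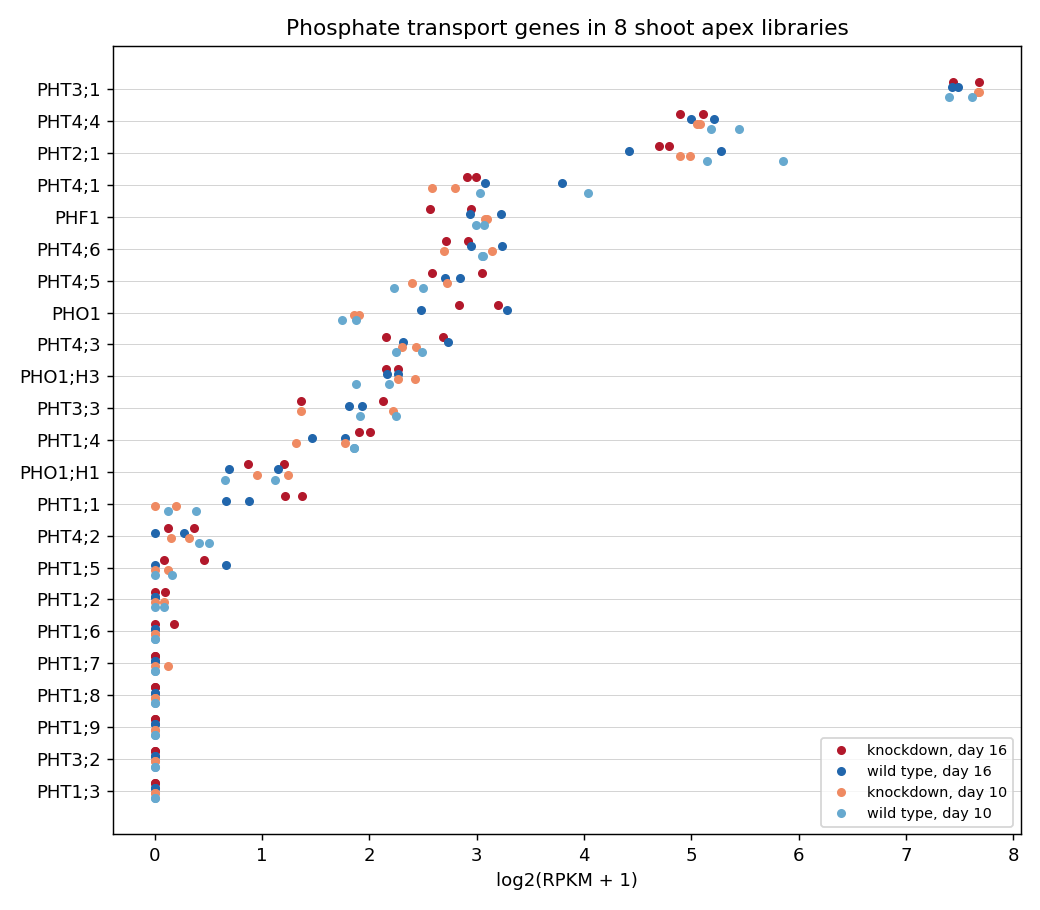
Level of phosphate transport genes on log2(RPKM + 1) (horizontal axis), 2 points per group and gene, ordered by mean level. The organelle carrier PHT3;1 leads, while PHT1 importers other than PHT1;4 and PHT1;1, and also PHT3;2 and PHT4;2, lie at or near 0.

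In the starvation response list, the target mimic AT4 had 4.49 and 2.88 RPKM in knockdown and 1.93 and 0.68 RPKM in wild-type apices of day 16, and 1.13 and 2.16 RPKM in knockdown and 1.42 and 1.02 RPKM in wild-type apices of day 10. Its log2 fold change at day 16 was 1.06 (SE 0.34, limma unadjusted p = 0.0122, adjusted p = 0.670), and it was 0.66 without replicate 2 of wild type at that age and 1.46 without replicate 1. The authors' deposited table of higher genes at day 16 lists AT4 with a fold of 3.13 and a p-value of 0.02. PS3, a glycerol-3-phosphate permease, had 0.84 and 0.56 RPKM in knockdown and 0.21 and 0.12 RPKM in wild-type apices of day 10, a log2 fold change of 0.54 (SE 0.30, limma adjusted p = 0.760), and the authors' deposited table of higher genes at day 10 lists it with a fold of 4.3 and a p-value of 0.00175. At day 16 PS3 was at 0.97 and 1.85 RPKM in the knockdown line and 0.88 and 1.62 RPKM in wild type. IPS1, the other mimic, was at 0.22 and 0.85 RPKM in knockdown apices of day 10 and at 0 in the other 6 libraries. These 2 values stand for an estimated 2 and 8 reads, and IPS1 stayed below the level needed for the test. Reads were few for AT4 too, an estimated 11 to 65 per library. For PS3 at day 10 they were 40 and 27 in knockdown and 10 and 6 in wild-type apices. The acid phosphatase PAP10 had 5.34 and 7.70 RPKM in knockdown and 10.45 and 7.95 RPKM in wild-type apices of day 16, and PPCK1, a kinase of PEP carboxylase, was at 13.80 and 9.36 RPKM in the knockdown line and 22.38 and 12.30 RPKM in wild type at that age.

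Between the ages, 1 of the 11 tested starvation genes passed over both genotypes, SRG3, and 0 of the 10 signalling and 0 of the 11 transport genes did, with 2 signalling, 0 transport and 4 starvation genes at an unadjusted p under 0.05, where 13.8% of all tested genes had one. SRG3, a glycerophosphodiester phosphodiesterase with 2 matches to P1BS in its 300 upstream bases, had 12.42 and 15.42 RPKM in knockdown and 16.54 and 15.37 RPKM in wild-type apices of day 16, and 7.79 and 8.03 RPKM in knockdown and 9.14 and 7.13 RPKM in wild-type apices of day 10. It rose by a log2 fold change of 0.82 (SE 0.14, limma adjusted p = 0.0244), and the call held without replicate 1 of the knockdown line at day 16 and was lost without any 1 of the other 7 libraries (up to 0.0928) and without the filter on low values (0.0564). P1BS was found in the 300 upstream bases of 7 of the 19 starvation genes. It was found there in 4 of the 14 signalling and 3 of the 20 transport genes, against 6.5% of all regions. Neither PHO2 nor PHO1 held it in that window. In 1000 bases PHO2 held it and PHO1 did not, against 20.25% of all regions. A link between the motif and age was not tested. Median log2 fold changes of day 16 over day 10 were 0.18 for the 7 members other than PHT1;1 (0.48 with it), 0.19 for signalling, -0.03 for transport and 0.25 for the starvation response, beside 0.05 over all tested genes.

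**Figure D5:**
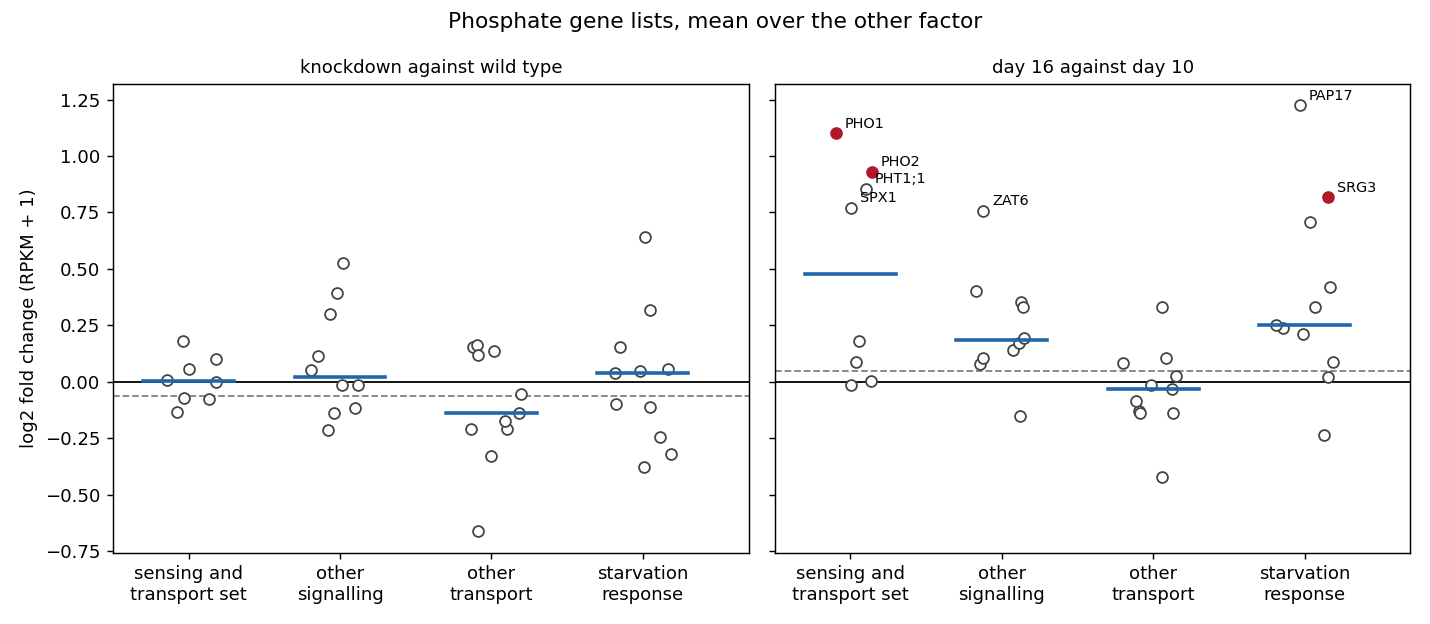
Log2 fold change (vertical axis, on log2(RPKM + 1)) of each tested gene in the sensing and transport set and in the 3 wider lists, for the knockdown line over wild type and for day 16 over day 10, each as the mean over the other factor. Filled points passed an adjusted p of 0.05, blue lines are medians of the tested genes (PHT1;1 included) and the dashed line is the median of all tested genes; filled points (PHO1, PHO2 and SRG3) occur between the ages only, and the difference between the 2 panels was not tested.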

How the data were processed

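Per the labels' protocols, trizol-extracted RNA of shoot apices went into a directional mRNA library kit. The authors deposited RPKM values per locus, per the file headers (the file's name says RPM), on TAIR10, per the submitters' processing notes; the sources name no aligner or counting tool. Per the file headers, the authors' lists of changed genes give a linear fold (a ratio, or a signed score where lower) and a p-value. Groups and replicate numbers came from the titles. Values were tested as log2(RPKM + 1) with limma 3.58.1 (R 4.3.3, intensity trend, two-sided, Benjamini-Hochberg over the 17467 genes that reached 1 RPKM in 2 or more libraries; 4 residual and 5.80 prior degrees of freedom), checked on simulated data. Depth was estimated from steps of low values; whole reads were not recovered, and fold changes on this scale understate those of low genes. Names, positions and sequences came from RefSeq TAIR10.1, which matched 27445 of 27655 loci; 11 of 64 wider list loci whose names RefSeq does not give were dropped. All members were named, PECT1, and in each wider list the genes that passed and the 2 with the smallest p per genotype contrast; ranges outside this rule, and IPS1, PHT3;1 and SRG3, were picked after values were seen. The members and lists were chosen with earlier results of these data known. Alternatives were pseudocounts of 0.25 and 4, no filter, a filter of 5 RPKM, other scalings, fewer libraries and a replicate block.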

Additional observations from a re-analysis of the deposited data

Results flagged for a closer look

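PHT1;4 drew attention because both of its knockdown libraries lay above both wild-type libraries at day 16 and below both at day 10, and equally because its day 16 libraries lay above those of day 10 in the knockdown line and below them in wild type. Both orders are the same 8 values read along the other factor. The interaction of genotype and age was 0.65 on the log2 scale (SE 0.36), and limma's adjusted p was 1.00, so the difference did not pass.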

How the results depend on the processing

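No member passed in any of the 6 planned comparisons under any alternative that gave a value. For day 16 against day 10 over both genotypes, 2 members passed (PHO2 and PHO1), 1 did without the filter (PHT1;1, with PHO2 and PHO1 lost) and 1 with quantile normalization (PHO2); the count ranged from 0 to 2 when 1 library was left out. Replicate numbers were not taken as pairs, since the deviations of same-numbered libraries correlated at more than 0.1 in 4 of 6 pairs of groups only (-0.239 to 0.329); with a replicate block 3 members passed (PHT1;1 too, adjusted p = 0.0469), and 0 did in the 6 planned comparisons. Several genotype values changed sign, among them SPX1 at day 10 (-0.44) and PHR1 at day 16 (-0.34). With 1 library left out, log2 fold changes of the knockdown line over wild type ran from -0.35 to 0.20 for SPX2, -0.27 to 0.54 for PHO1, -0.10 to 0.33 for PHO2 and -0.70 to 0.016 for PHR1 at day 16, from -0.91 to 0.025 for SPX1 and -0.26 to 0.034 for PHO2 at day 10, and from -0.31 to 0.16 for SPX1, -0.079 to 0.20 for SPX2, -0.18 to 0.042 for SPX4, -0.10 to 0.30 for PHO1, -0.11 to 0.11 for PHO2, -0.10 to 0.12 for PHT1;4 and -0.31 to 0.044 for PHR1 over both ages. SPX2 at day 16 was 0.040 with median-of-ratios scaling and 0.055 with quantile normalization. Over both ages, SPX1 was 0.0047 and SPX4 0.0065 with quantile normalization, and PHO2 was -0.00028 with a pseudocount of 0.25. The cause of these turns was not tested. The number of libraries, 2 per group, limits the precision of every value.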
